A study of Homo sapiens with 6 samples.

Results

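The miR-15/16 family is a set of 7 mature miRNAs, chosen by name from the 2549 human miRNAs on the array: hsa-miR-15a-5p, hsa-miR-15b-5p, hsa-miR-16-5p, hsa-miR-195-5p, hsa-miR-424-5p, hsa-miR-497-5p and hsa-miR-503-5p. They were measured in exosomes, small vesicles released into the culture medium, from the established human ES cell line H9, which was kept on Matrigel in TeSR-E8. Substate 1 cells formed typical colonies with strong R-10G staining and no vimentin, whereas substate 2 cells stained more weakly for R-10G, contained vimentin and were described by the study as biased towards ectoderm. Exosomes of each substate were precipitated with ExoQuick-TC in 3 experiments, with 1 Agilent miRNA array per substate and experiment. Substate 1 cells were at passages 41, 46 and 50 in experiments 1, 2 and 3, and substate 2 cells at passages 52, 61 and 65, so that substate and later passage cannot be told apart. Within each experiment the labelled amount of miRNA was equal (72.4, 100 and 51.4 ng in turn), and both arrays lay on the same slide (slide 1 for experiment 1, slide 2 for experiments 2 and 3). H9 is 1 line, and the miRNAs of the cells themselves were not analysed here. As equal amounts were labelled, the values compare a miRNA's level within the labelled RNA. Neither the number of vesicles nor the amount of a miRNA per vesicle was measured.

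A miRNA guides the silencing machinery to mRNAs that pair with its seed, the bases near its 5′ end, so that miRNAs with the same seed have overlapping targets. The miR-15/16 family is known as a brake on the cell cycle: its targets include cyclins D and E, the kinases CDK6, CHEK1 and WEE1, and the survival factor BCL2. ES cells divide with a short G1 phase, and the family's members are made from clusters of neighbouring hairpins on different chromosomes, which allows them to be produced separately.

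The mature sequences are shown because the seed defines the family and the remaining bases decide how far an array probe can tell its members apart. All 7 names matched RefSeq (GRCh38.p14). In the lines that follow, read 5′ to 3′, the capitals mark the seed (bases 2 to 8). The last pair, miR-103a-3p and miR-107, are relatives outside the 7 that carry the AGCAGC core shifted by 1 base.
miR-15a-5p: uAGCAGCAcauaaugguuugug
miR-15b-5p: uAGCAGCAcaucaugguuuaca
miR-16-5p: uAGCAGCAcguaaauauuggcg
miR-195-5p: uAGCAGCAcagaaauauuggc
miR-424-5p: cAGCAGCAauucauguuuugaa
miR-497-5p: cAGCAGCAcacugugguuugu
miR-503-5p: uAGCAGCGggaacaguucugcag
miR-103a-3p: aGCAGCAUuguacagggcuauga
miR-107: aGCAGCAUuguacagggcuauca

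The seed AGCAGCA was found in 7 of 2370 mature miRNA names in RefSeq, namely 6 of the 7 members and miR-6838-5p. miR-503-5p had the seed AGCAGCG, which differs from that of the other members by A8G, counted from the 5′ end. Outside the seed the members diverged. miR-15a-5p and miR-15b-5p were identical at 18 of 22 positions, and miR-15b-5p and miR-16-5p at 14 of 22. The closest pair was miR-16-5p and miR-195-5p, which differed over 21 positions by G10A and U11G alone, followed at the 3′ end by 1 more base in miR-16-5p. miR-103a-3p and miR-107 differed by G22C alone. How far the probes of such near-identical miRNAs tell them apart was not tested here, so that low signals of miR-195-5p and the separate values of miR-103a-3p and miR-107 are uncertain.

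The members lie in 4 clusters of hairpins. MIR15A (mature miRNA at chr13:50049167-50049188, minus strand) and MIR16-1 (chr13:50049027-50049048, minus strand) are 57 bases apart within the span of the long noncoding RNA gene DLEU2. MIR15B (chr3:160404607-160404628, plus strand) and MIR16-2 (chr3:160404754-160404775, plus strand) are 59 bases apart within the span of SMC4, which encodes a subunit of condensin. The mature miR-16-5p of both clusters is the same, so that its signal is a sum over the 2 genes. MIR195 (chr17:7017667-7017687, minus strand) and MIR497 (chr17:7017979-7017999, minus strand) are 209 bases apart within MIR497HG, and MIR424 (chrX:134546680-134546701, minus strand) and MIR503 (chrX:134546371-134546393, minus strand) are 215 bases apart, the latter within MIR503HG.

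Exosomes of both substates carried the miR-15a, miR-15b and miR-16 part of the family, and the chromosome 17 and X part passed detection on fewer arrays or on none. miR-15a-5p, miR-15b-5p and miR-16-5p were detected on all 6 arrays, as were 289 (11.3%) of all human miRNAs. miR-424-5p was detected on 4 arrays and miR-195-5p on 1. miR-497-5p and miR-503-5p were detected on no array, as were 1920 (75.3%) of all human miRNAs. Detection here means that at least 1 of a miRNA's probes had a signal over 3 times its error, and the total signal is the sum over such probes in background-subtracted intensity units.

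The libraries as a whole differed in brightness. Between 310 and 594 miRNAs were detected per array, the 99th percentile of total signals lay between 125.0 and 475.6 intensity units, and it was lower in substate 2 than in substate 1 in all 3 experiments, with log2 differences of -0.82, -0.33 and -0.52. Total signals were therefore divided by each array's 99th percentile. Scaled signals below 0.431% of it were raised to this common floor, and log2 was taken. limma was run on 474 miRNAs, those detected on 3 or more arrays, with a block for experiment. A miRNA counted as called if it differed by 2-fold or more with an adjusted p (Benjamini-Hochberg) below 0.05. Of the 474, limma called 0 (0%, smallest adjusted p = 0.139), and 109 (23%) had an unadjusted p under 0.05. All differences are substate 2 minus substate 1. Of the pluripotent cell markers (the miR-302, miR-367 and miR-371 to miR-373 miRNAs), 7 of 8 were detected on at least 1 array and miR-372-3p on none. Their summed signals before scaling were 2512 to 5589 in substate 1 and 1252 to 3408 in substate 2. After scaling, the 5 tested had a median difference of -0.33, with miR-367-3p alone above 0 (0.21), and none was called.

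miR-15b-5p gave total signals of 106.1, 64.0 and 45.3 in substate 1 in experiments 1, 2 and 3. In substate 2 they were 52.5, 100.3 and 30.9. The signal was thus lower in substate 2 in experiments 1 and 3 and higher in experiment 2, and the substates overlapped. The error that the scanner software gave was 7.18% to 7.35% of the signal on every array. Relative to the 99th percentile, miR-15b-5p stood at 22.3%, 18.0% and 25.2% in substate 1 and at 19.5%, 35.6% and 24.7% in substate 2. Scaling thus left experiments 1 and 3 nearly level and experiment 2 higher in substate 2. The log2 differences were -0.19, 0.98 and -0.03, with a mean of 0.25 ± 0.63 (SD, n = 3 experiments; 95% interval -0.72 to 1.22; limma adjusted p = 0.605).

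miR-16-5p, the member made from the clusters on chromosomes 3 and 13, gave total signals of 96.1, 57.7 and 41.9 in substate 1 and of 68.0, 120.1 and 36.7 in substate 2, with errors of 7.45% to 7.65%. As for miR-15b-5p, the unscaled signal was higher in substate 2 in experiment 2 alone. Relative to the 99th percentile, it stood at 20.2%, 16.3% and 23.3% in substate 1 and at 25.3%, 42.6% and 29.4% in substate 2. On this scale every substate 2 array lay above every substate 1 array, as did those of 56 (11.8%) of the 474 tested miRNAs. The log2 differences of 0.33, 1.39 and 0.33 had a mean of 0.68 ± 0.61 (SD, n = 3 experiments; 95% interval -0.25 to 1.62), that is 1.61-fold, and the limma adjusted p was 0.274 (unadjusted p = 0.104).

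miR-15a-5p, the partner of MIR16-1 on chromosome 13, gave total signals of 5.91, 3.62 and 4.18 in substate 1 and of 3.77, 10.4 and 3.95 in substate 2. Its errors were 8.47% to 13.6%. Relative to the 99th percentile, it stood at 1.24%, 1.02% and 2.33% in substate 1 and at 1.40%, 3.68% and 3.16% in substate 2. The substates overlapped, since substate 1 in experiment 3 lay above substate 2 in experiment 1. The log2 differences of 0.17, 1.85 and 0.44 had a mean of 0.82 ± 0.90 (SD, n = 3 experiments; 95% interval -0.54 to 2.18), that is 1.77-fold, and the limma adjusted p was 0.307.

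**Figure D1:**
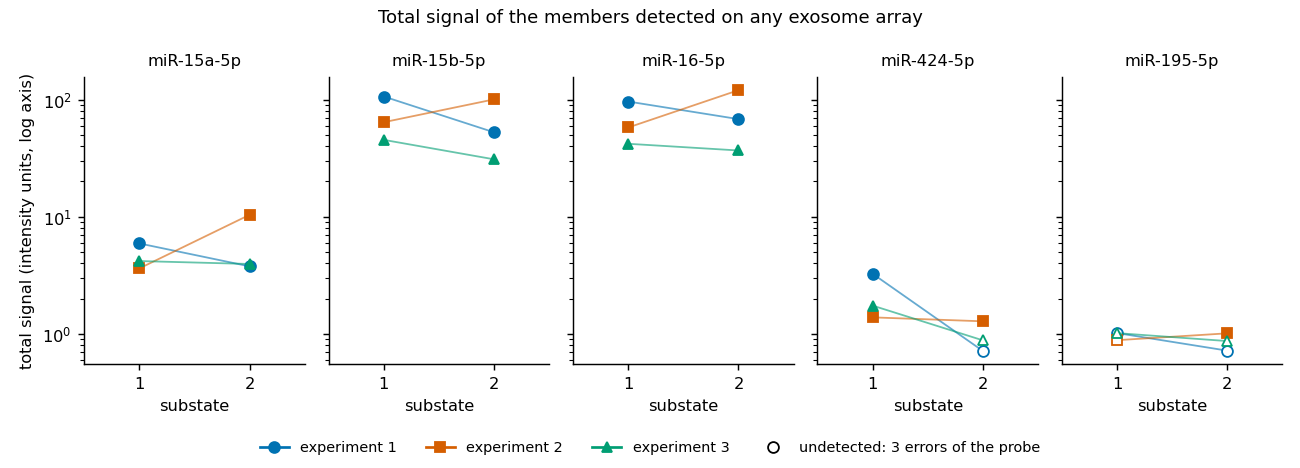
Total signal (intensity units, log axis) of the 5 members detected on any array in exosomes of substate 1 and substate 2, with lines joining the arrays of an experiment and open points placed at the limit of 3 errors of a probe where the miRNA was undetected. miR-15a-5p, miR-15b-5p and miR-16-5p are higher in substate 2 in experiment 2 and lower in experiments 1 and 3 before scaling, and the closed points of miR-195-5p and of miR-424-5p in substate 2 number 1 each.

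Of the 3 members detected on all 6 arrays, 2 (miR-15a-5p and miR-16-5p) were higher in substate 2 in all 3 experiments, beside 87 (30.1%) of the 289 miRNAs so detected and 100 (21.1%) of the 474 tested. None of the 4 tested members, which include miR-424-5p, was lower in all 3, beside 111 (23.4%) of the 474. None of the 4 reached a 2-fold mean difference, which 23 (4.85%) of the tested miRNAs reached upwards and 22 (4.64%) downwards. The median difference was 0.68 over the 3 and 0.47 over the 4, beside -0.01 over all tested miRNAs. Over the 4 it was 0.10 without experiment 2, and -0.09 with the labelled amount alone, where the median over all tested miRNAs was -0.51. Experiment 2 gave the highest difference of each of the 4 members, and without experiment 2 the means were 0.31 for miR-15a-5p, -0.11 for miR-15b-5p, 0.33 for miR-16-5p and -0.92 for miR-424-5p.

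**Figure D2:**
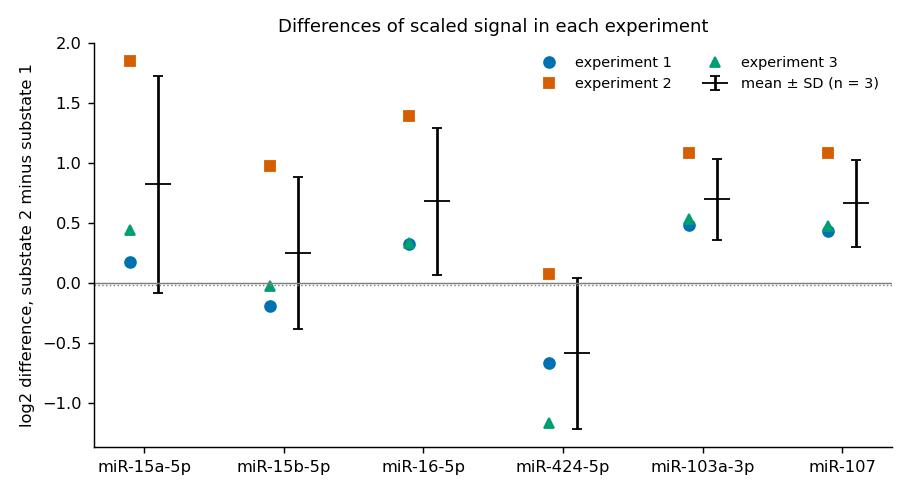
Log2 difference of scaled signal, substate 2 minus substate 1, in each experiment for the 4 tested members and for miR-103a-3p and miR-107, with the mean ± SD over 3 experiments at the right of each set of points and a dotted line at the median of all tested miRNAs. Experiment 2 gives the highest point of every miRNA shown, and the points of miR-15b-5p and of miR-424-5p lie on both sides of 0.

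The signals came from 2 probes each for miR-15a-5p, miR-15b-5p and miR-16-5p, and both passed detection on all 6 arrays. Scaled log2 differences of the 2 probes of miR-16-5p were 0.36, 1.40 and 0.41 for one and 0.31, 1.39 and 0.30 for the other in experiments 1, 2 and 3. Those of miR-15a-5p were 0.20, 1.80 and 0.34, and 0.16, 1.88 and 0.50. For these miRNAs, both probes gave a higher value in substate 2 in every experiment. The probes of miR-15b-5p gave -0.10, 1.03 and 0.03, and -0.32, 0.92 and -0.10, so that they had opposite signs in experiment 3.

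**Figure D3:**
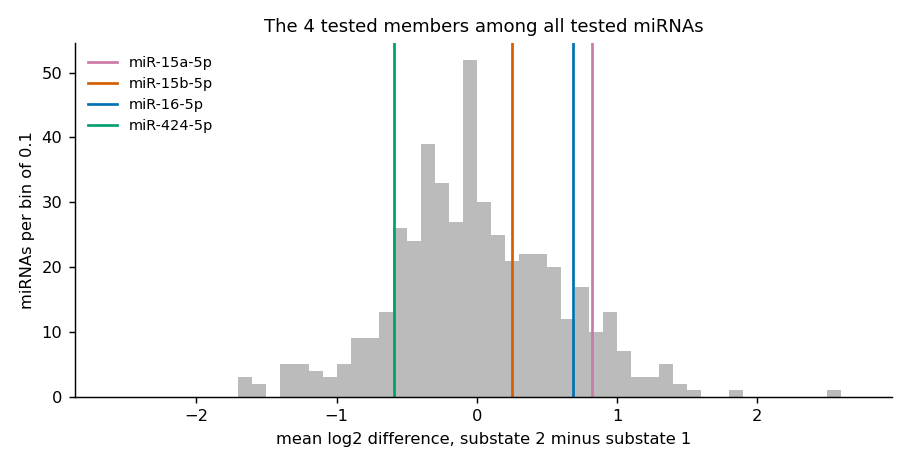
Histogram of the mean log2 difference, substate 2 minus substate 1, of the 474 tested miRNAs in bins of 0.1, with vertical lines at the 4 tested members. miR-15a-5p (0.82) and miR-16-5p (0.68) stand in the upper part of the distribution, miR-15b-5p (0.25) nearer to its middle and miR-424-5p (-0.59) in the lower part.

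The ratio of 2 miRNAs on the same array does not depend on how the array is scaled. This comparison was added after the values were seen, over 10 pairs among miR-15a-5p, miR-15b-5p, miR-16-5p, miR-103a-3p and miR-107. Relative to miR-15b-5p, its neighbour on chromosome 3, miR-16-5p was higher in substate 2 by 0.52, 0.41 and 0.36 on the log2 scale in experiments 1, 2 and 3, with an error of 0.21, 0.21 and 0.22 from the scanner software's errors of the 4 signals. The mean was 0.43 ± 0.08 (SD, n = 3 experiments), that is 1.35-fold, with an exact two-sided sign-flip permutation p of 0.25, the smallest that 3 experiments allow (adjusted p = 0.5 over the 10 pairs). The spread over experiments was smaller than for either miRNA alone. This was also so for miR-107 relative to miR-103a-3p (mean -0.03 ± 0.03 SD, n = 3 experiments), so that a small spread is not particular to miR-16-5p and miR-15b-5p. All 4 combinations of a miR-16-5p probe with a miR-15b-5p probe gave values above 0 in every experiment (0.27 to 0.68). These combinations re-use the same probes and the same 3 experiments, and are not replicates. Of the other 288 miRNAs detected on all 6 arrays, 54 (18.8%, miR-16-5p included) were higher in substate 2 relative to miR-15b-5p in all 3 experiments and 100 (34.7%) were lower.

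miR-15a-5p was likewise higher in substate 2 relative to miR-15b-5p, by 0.36, 0.87 and 0.47 (mean 0.57 ± 0.27 SD, n = 3 experiments, 1.48-fold; exact permutation p = 0.25, adjusted p = 0.5). The errors of these values were 0.27, 0.27 and 0.31. Between miR-16-5p and miR-15a-5p, which share the cluster on chromosome 13, the differences of 0.15, -0.46 and -0.11 had both signs (mean -0.14 ± 0.31 SD, n = 3 experiments; exact permutation p = 0.75, adjusted p = 1). Within the miR-15/16 clusters, the miRNA found on chromosome 3 alone thus had the lowest difference in each experiment on these signals. The spread of the remaining pair did not separate them. With normexp background correction, which added an offset of 50 to every spot signal, this order did not hold in experiment 2. There miR-15a-5p, the dimmer of the 2, differed by 0.71 (1.85 on the main scale) and miR-15b-5p by 0.83 (0.98 on the main scale). The part of the offset in this change was not tested.

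**Figure D4:**
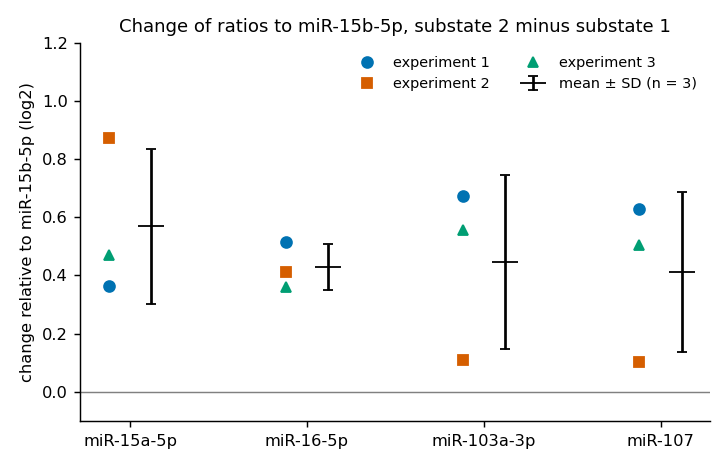
Change of the ratio to miR-15b-5p (log2, substate 2 minus substate 1) of miR-15a-5p, miR-16-5p, miR-103a-3p and miR-107 in each experiment, with the mean ± SD over 3 experiments. All 12 points lie above 0, and those of miR-16-5p lie closest together (0.36 to 0.52).

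miR-424-5p, the detected member of the X-linked pair, gave total signals of 3.26, 1.38 and 1.74 in substate 1. In substate 2 it was detected in experiment 2 alone, with 1.28. Its errors were 16.1% to 25.0%, and both of its probes passed detection on 1 array, that of substate 1 in experiment 1, and 1 of 2 probes on the 3 other arrays that detected it. Where it was undetected, in substate 2 of experiments 1 and 3, its highest probe signal was 0.524 and 0.522, against limits of 0.715 and 0.881. In these experiments the miRNA thus passed detection in substate 1 and not in substate 2, and in experiment 2 its signals differed by less than their errors. In the fit over all tested miRNAs, 3 of its 6 values stood at the common floor (substate 1 in experiment 2 and substate 2 in experiments 1 and 3), and the differences against that floor were -0.67, 0.08 and -1.17, with a mean of -0.59 ± 0.63 (SD, n = 3 experiments; 95% interval -1.55 to 0.37; limma adjusted p = 0.305). As miR-424-5p was tested because it was detected on all 3 substate 1 arrays, and on 1 of substate 2, these values and this p are given as a description and support no direction. Summed over both probes without the detection rule, the signals were 3.26, 1.75 and 2.72 in substate 1 and 0.704, 1.86 and 0.946 in substate 2.

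To ask whether the X-linked members moved apart from the autosomal ones, miR-424-5p alone was compared with the mean of miR-15a-5p, miR-15b-5p and miR-16-5p, since miR-503-5p was undetected. With its values at the floor included, its difference minus that mean was -0.77, -1.33 and -1.42 in experiments 1, 2 and 3 (mean -1.17 ± 0.35 SD, n = 3 experiments). A two-sided exact permutation of signs gave p = 0.25, the smallest that 3 experiments allow. With normexp background correction, which added an offset of 50 to every spot signal, the value was -0.18 (exact permutation p = 1). Since miR-424-5p was undetected in substate 2 of experiments 1 and 3, the question is not answered by these values.

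miR-503-5p, which is made beside miR-424-5p and also acts on cell cycle mRNAs, had no probe over its limit. Its 3 probes gave at most 0.136 intensity units, against limits for its least sensitive probe of 0.488 to 0.701. None of the 7 other miRNAs listed from the neighbouring miR-542 and miR-450 hairpins on the X chromosome was detected on any array. Of all human miRNAs, 1920 (75.3%) were likewise undetected. miR-497-5p gave at most 0.515, against limits of 0.702 to 1.01. Both members thus have an upper limit and no level in either substate.

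miR-195-5p, the neighbour of miR-497-5p on chromosome 17, was detected on the substate 2 array of experiment 2 alone, with 1.01 intensity units, an error of 30.6% and 1 of 2 probes over its limit. The limits on the other arrays were 0.719 to 1.02, about the detected value, so that no fold is given. The array that detected it was also the one with the highest signal of miR-16-5p (120.1), from which it differs at the 2 bases named above. The part of miR-16-5p in this signal was not tested.

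The relatives miR-103a-3p and miR-107, whose hairpins lie within the spans of the pantothenate kinase genes PANK3, PANK2 and PANK1 and which share many target sites with the family, were detected on all 6 arrays. miR-103a-3p gave total signals of 129.0, 90.1 and 48.8 in substate 1 and of 101.7, 152.1 and 49.0 in substate 2. miR-107 gave 97.3, 64.6 and 35.2 in substate 1 and 74.4, 108.8 and 34.1 in substate 2. Both were highest on the substate 2 array of experiment 2 and lowest in experiment 3, and how much signal their probes share was not tested. After scaling, every substate 2 array lay above every substate 1 array for both, as for 56 (11.8%) of the 474 tested miRNAs. The log2 difference was 0.70 ± 0.34 for miR-103a-3p (SD, n = 3 experiments; 95% interval 0.15 to 1.25; limma adjusted p = 0.203) and 0.67 ± 0.36 for miR-107 (95% interval 0.08 to 1.25; limma adjusted p = 0.203). Both missed the call. Both were higher in substate 2 in all 3 experiments, beside 87 (30.1%) of the 289 miRNAs detected on all 6 arrays. Relative to miR-16-5p, miR-103a-3p changed by 0.16, -0.30 and 0.20 (mean 0.02 ± 0.28 SD, n = 3 experiments), and relative to miR-15b-5p by 0.67, 0.11 and 0.56 (mean 0.45 ± 0.30 SD). The other miRNAs listed in this wider group, miR-103b, miR-646 and miR-6838-5p, were undetected on all 6 arrays.

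The arms opposite to the members are usually degraded when the hairpin is processed. Of 8 listed, 6 were detected on no array, near the share of all human miRNAs (1920, 75.3%). The other 2 were detected on 1 array each: miR-15b-3p with 0.641 intensity units in substate 1 of experiment 1, and miR-16-2-3p with 0.476 in substate 2 of experiment 2. These 2 are named after their values were seen, and none of the 8 was tested.

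Other miRNAs that act on the cell cycle were listed beside the family. Of 16 further cell cycle brakes, 12 were undetected on every array, beside 1920 (75.3%) of all human miRNAs. These 12 included all 9 of the let-7 family listed (with miR-98-5p), which is known to be low in ES cells. The 4 tested were miR-26a-5p, miR-26b-5p, miR-34a-5p and miR-34b-5p, with differences of 0.74, 1.14, 0.53 and 0.12 (limma adjusted p = 0.203, 0.274, 0.376 and 0.907). Of these 4, 2 were higher in substate 2 in all 3 experiments, beside 100 (21.1%) of the 474 tested, and none was called. Of 12 miRNAs listed as promoting the ES cell cycle, 9 were tested and none was called. Among these, miR-302a-3p to miR-302d-3p, which are abundant in ES cells and repress the cyclin-dependent kinase inhibitor p21, had differences of -0.36, -0.51, -0.22 and -0.33. The miR-17 family members miR-17-5p, miR-20a-5p, miR-20b-5p, miR-93-5p and miR-106b-5p, which also repress p21, had differences of 0.63, 0.60, 0.77, 0.48 and 0.76. All 5 were higher in substate 2 in all 3 experiments (lowest limma adjusted p = 0.215), beside 87 (30.1%) of the 289 miRNAs detected on all 6 arrays. The median difference was 0.64 over the 4 brakes and 0.48 over the 9 promoters, beside -0.01 over all tested miRNAs, so that positive differences were found in both lists.

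The values of the members depended on the scale chosen for the arrays. When the labelled amount alone was used, without any array percentile, the median of all tested miRNAs was -0.51, and the differences were 0.26 for miR-15a-5p, -0.31 for miR-15b-5p, 0.12 for miR-16-5p and -1.26 for miR-424-5p. Relative to that median, miR-15a-5p, miR-15b-5p and miR-16-5p stood above 0 and miR-424-5p below. With normexp background correction the median of all tested miRNAs was 0.33, and miR-15b-5p (0.30) and miR-424-5p (0.31) stood next to it. In that setting miR-15a-5p (0.52, limma adjusted p = 0.00655), miR-16-5p (0.65, limma adjusted p = 0.0178) and miR-424-5p (limma adjusted p = 0.0136) passed the p threshold and missed the 2-fold threshold. These p-values test against 0 and not against the median of 0.33. How many of all tested miRNAs passed the p threshold was not counted, so that no result about the members is drawn. That setting also added an offset of 50 to every background-corrected spot signal.

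**Figure D5:**
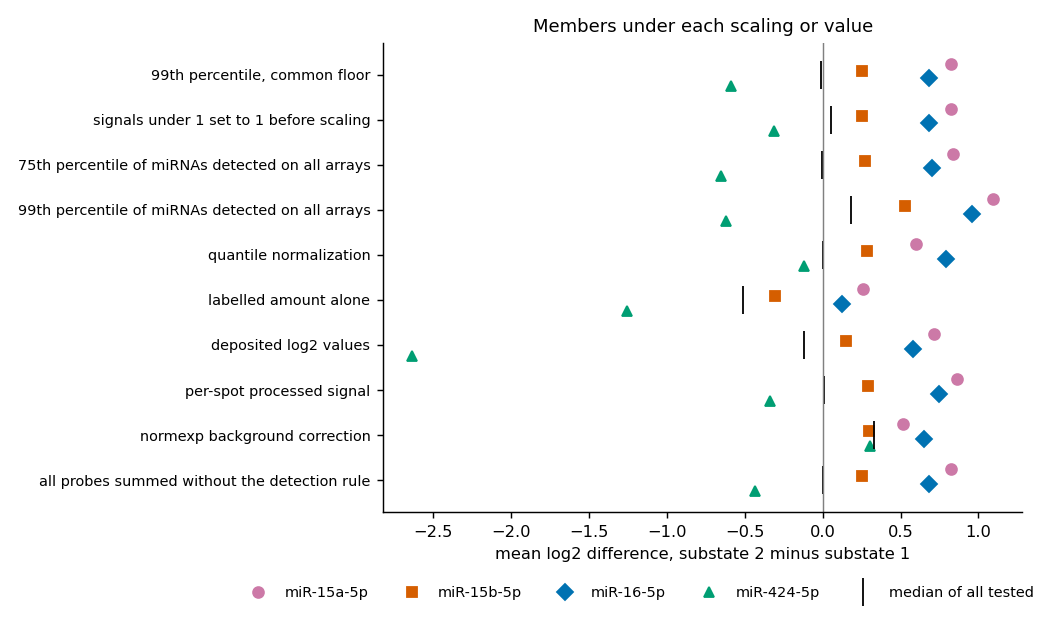
Mean log2 difference, substate 2 minus substate 1, of the 4 tested members under 10 scalings or kinds of value, with a black tick at the median of all tested miRNAs in each. miR-15a-5p and miR-16-5p lie above 0 in all 10, miR-15b-5p lies below 0 with the labelled amount alone (-0.31), and miR-424-5p lies above 0 with normexp background correction (0.31).

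The arrays of the members followed one another. Over the 6 arrays, Pearson's r of the scaled log2 signals was 0.88 between miR-15a-5p and miR-15b-5p, 0.89 between miR-15a-5p and miR-16-5p and 0.88 between miR-15b-5p and miR-16-5p. These are descriptions over arrays that share labelling, slide and scale. Among all other miRNAs detected on all 6 arrays, the profile most like that of miR-16-5p was miR-20a-5p (r = 0.996), that of miR-15a-5p was miR-454-3p (r = 0.986) and that of miR-15b-5p was miR-148a-3p (r = 0.957). The mean profile of the 3 members was most like miR-18a-5p (r = 0.992), miR-34a-5p (r = 0.984) and miR-454-3p (r = 0.977), where the median over all other miRNAs was 0.06.

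Markers of other cell types were detected in part. Of 5 neural markers, miR-124-3p and miR-128-3p were detected on all 6 arrays and miR-9-5p, miR-9-3p and miR-219a-5p on none, with summed signals of 5.27 to 15.0 in substate 1 and 4.46 to 17.6 in substate 2. On the scale used for the members, miR-124-3p was higher in substate 2 by 0.38, 0.99 and 0.37 in experiments 1, 2 and 3 (limma adjusted p = 0.215), and miR-128-3p differed by -0.13, 1.22 and 0.09. The median of these 2 was 0.49, beside 0.47 over the 4 tested members, of which miR-424-5p lay below 0. The part of these markers in the members' values was not tested. Of 5 mesenchymal markers, 2 were detected on at least 1 array, with sums of 0 to 1.72 and 0 to 1.27. Of 4 erythroid markers, listed because miR-16-5p is abundant in red blood cells, miR-486-5p alone was detected, on 3 arrays, with sums of 0 to 3.62 in substate 1 and 0 to 0.798 in substate 2. miR-451a, the defining erythroid miRNA, was undetected on all 6 arrays.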

How the data were processed

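The measurements are 6 single-colour (Cy3) Agilent SurePrint G3 human miRNA arrays of H9 exosomes, grouped by the substate and experiment in the sample labels. The deposited scanner files of the authors hold intensity from Agilent Feature Extraction (12.0.3.2 for experiment 1, 11.5.1.1 for experiments 2 and 3): spot signals, a total signal per miRNA and a detection mark, not normalised between arrays. The total signal equalled the sum of probes over 3 errors in 2698 of 2698 detected values (tolerance 0.5%), and detection followed that rule in 15294 of 15294 values. An undetected miRNA is written as 0.1. The authors' processed values were deposited as log2 with a scale per array, and served as an alternative. The paper states that signals under 1 were set to 1, that arrays were scaled to the 99th percentile and that exosome signals were corrected to 1 ng. The last correction is equal for both substates of an experiment.

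Here, total signals were scaled to the 99th percentile over human miRNAs, raised to a common floor (0.431% of it), log2-transformed and fitted with limma 3.58.1 in R 4.3.3 for the 474 miRNAs detected on at least 3 arrays, with a block for experiment and p-values adjusted over all 474 by Benjamini-Hochberg. Ratios were tested with exact sign-flip permutation tests. The pairing comes from the experiment numbers of the labels and the study's paired test. Deviations from the substate means correlated by 0.674, 0.0307 and 0.517 in experiments 1, 2 and 3. The experiments differ in passage of 1 cell line, and p-values measure only the spread between these samples, which may be technical in part. No spot was saturated (0), between 8.39% and 16.9% of spots were well above background, and precision is limited by how many arrays there were. The fit was tested on simulated data.

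The 7 members and all lists were chosen with earlier results of these data known. All members are named, with the tested miRNAs of the opposite arms, X-linked neighbours and wider miR-15/107 group, and the most alike profile of each member detected on all arrays. Cell cycle miRNAs, markers and calls named beyond this rule were chosen after their values were seen. Alternatives were other floors, scalings, background corrections, detection filters and fits, the deposited values, a paired t-test over all tested miRNAs and each experiment left out. The summing of all probes, the ratios and the scalings of the miR-424-5p comparison were added after seeing the data. Genome positions and sequences are from RefSeq (GRCh38.p14).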

Additional observations from a re-analysis of the deposited data

How the results depend on the processing

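Over 17 alternatives the tested members (4 in 16 of them, and 3 where detection on all 6 arrays was required) gave 0 calls. The difference of miR-15a-5p lay between 0.26 and 1.15 and that of miR-16-5p between 0.12 and 0.96, both above 0 throughout. miR-15b-5p was below 0 with the labelled amount alone (-0.31) and without experiment 2 (-0.11), with a range of -0.11 to 0.48 when each experiment was left out. miR-424-5p was above 0 with normexp (0.31, limma adjusted p = 0.0136) and below 0 in the other 15 of 16 settings. It reached -2.63 with the deposited values, in which undetected signals stand at 0.1 before scaling, without a floor. With quantile normalization and with the per-spot processed signal, its difference was 0 in experiments 1 and 2, and experiment 3 alone lay below 0. The settings re-use the same arrays, and miR-424-5p was detected on 1 array of substate 2, so that this count supports no direction. The difference of miR-424-5p from the mean of the other members was -0.68 with quantile normalization, -3.11 with the deposited values and -0.18 with normexp. The normexp setting added an offset of 50 to every spot signal, and in it miR-424-5p (0.31) stood next to the median of all tested miRNAs (0.33). Beyond the construction of the deposited values and of normexp, the cause was not tested.

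Over all miRNAs, limma called 0 and 3 alternatives differed. normexp called 3 (miR-130b-3p higher, miR-7107-5p and miR-7110-5p lower), the 289 miRNAs detected on all 6 arrays held 7 calls (5 higher, 2 lower), and the fit without the replicate block called 1 (miR-519d-3p, lower). None was a member, and the block changed no member's call. A paired t-test, the kind of test the study used, called 0 after Benjamini-Hochberg adjustment over all 474 tested miRNAs on the floored values. The paper ran its test only on miRNAs with a 2-fold difference, and reported exosome miRNAs both higher and lower in substate 2. That set and those values differ from the ones used here, so that the counts are not comparable. The median of all tested miRNAs was -0.51 with the labelled amount alone, 0.33 with normexp, 0.18 with the 99th percentile of miRNAs detected on all arrays and -0.12 with the deposited values. The change of miR-16-5p relative to miR-15b-5p lay between 0.35 and 0.46 with normexp and with each experiment left out. Signals of miR-195-5p, miR-497-5p and miR-503-5p at or below their limits hold no order between substates.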
